A study of Danio rerio with 19 samples.

Results

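The H3K9me3 peaks of brains of 20-month-old zebrafish (20 M) at ZT4 were compared with those of 4-month-old zebrafish (4 M) at the same time, ZT4 being 4 h after lights on. Every peak of both lists was used, 19177 at 20 M ZT4 and 70317 at 4 M ZT4, which makes 89494 of the 242100 peaks in the 6 lists of the series. Both groups were wild-type fish of the SAT strain, kept on a cycle of 12 h light and 12 h dark before sampling, with no treatment or transgene, and differed in the labels only in age. Chromatin was pulled down with an antibody against H3K9me3 in 3 libraries per group, while 1 further library of the series used an antibody against GFP. The authors called peaks on each triplicate and deposited 1 list per group, so a site has a position, a length and a score at each age, and no value per library. No spread between fish and no test between the ages could be had from 1 list a side, and every value below describes these lists. Intervals are Wilson 95% intervals over peaks or order-statistic intervals of a median, and they cover counting error only. The number of reads behind a list is not in the lists. A deeper or more enriched library set yields more peaks, so a 4 M peak missing at 20 M was not called there, and depth, enrichment and age cannot be told apart. No expression values were used, so the tissue could not be checked against brain markers.

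H3K9me3 is histone H3 with 3 methyl groups on lysine 9. SUV39 and SETDB1 methyltransferases write the mark and HP1 proteins bind it, and it is typical of constitutive heterochromatin, which packs satellite and transposon repeats around centromeres and on gene-poor arms. It is also laid over silenced genes, such as clustered zinc finger genes in mammals. In zebrafish the long arm of chromosome 4 is rich in repeats and heterochromatic.

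The 20 M ZT4 peaks were nearly all found among the 4 M ZT4 peaks. A 4 M peak was called retained when a 20 M peak overlapped it by at least 1 bp. Of the 20 M peaks, 18947 (98.8%, interval 98.6 to 98.9) overlapped a 4 M peak and 230 did not. Of the 4 M peaks, 18789 (26.7%, 26.4 to 27.0) were retained and 51528 were not. With the 4 M list cut to its 19177 highest-scoring peaks, 68.5% were retained. The 20 M list covered 2.84 Mb and the 4 M list 7.86 Mb. The shared places were called at almost the same positions: 18617 sites had exactly 1 peak in each list, and there the middles of both peaks lay within 10 bp of each other at 84.2% of sites. A further 158 of the 4 M peaks, of median length 701 bp, were overlapped by more than 1 and up to 4 peaks of the 20 M list. Of 18954 overlapping pairs, 3 shared under 10 bp. With a reciprocal overlap of 50% required, 1694 of the 20 M peaks had no partner at 4 M. Among the 4 M peaks not retained, 2 had a 20 M peak within 100 bp and 2373 within 1 kb.

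Retention at 20 M followed the score at 4 M. The score is the whole number the peak caller wrote for each peak. It ran between 10 and 95 in the 20 M list (median 35.0) and between 10 and 304 in the 4 M list (median 112), and it was used only to rank peaks within a list. Ordered in deciles (10 classes of about equal size, with tied scores kept together) of the 4 M list, with the lowest scores first, the retained share was 3.29%, 1.95%, 4.23%, 7.58%, 12.3%, 17.2%, 25.4%, 37.8%, 61.5% and 95.5%. The top decile, with scores of 182 to 304, thus kept 6664 of 6980 peaks. The lowest decile, with scores of 10 to 55, kept 234 of 7106. Retained peaks had a median percentile of 84.7 in the 4 M list, and peaks not retained one of 38.5. The order was broken at the bottom, where the lowest decile kept a larger share than the decile above it. Of the 164 retained peaks in the lowest twentieth, 112 lay on chromosome 4, which held 6.53% of all 4 M peaks. Low scores were common on that chromosome, where 870 of 4592 peaks scored under 20. At scores of at least 30, 3128 of its peaks were left, against 66872 of all 70317. Its share of the whole lowest twentieth, with scores of 10 to 30, is thus above 6.53% and is not given here. Over the whole lowest twentieth the retained peaks had a median length of 350 bp, against 140 bp for those not retained.

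Retained peaks had a median length of 108 bp at 4 M, and peaks not retained one of 65 bp. Only 26 of 18435 peaks under 60 bp were retained, which is 0.141% (0.0963 to 0.207). The share was 8.28% at 60 to under 80 bp, 53.0% at 80 to under 100 bp, 66.0% at 100 to under 150 bp, 50.5% at 150 to under 200 bp, 67.5% at 200 to under 500 bp and 86.6% (84.9 to 88.2) at 500 bp or more. Longer peaks score higher on the whole, so each class was set beside the share its scores alone would give, the mean over its peaks of the share retained in their twentieth of the ranking. That share was 5.24% under 60 bp, 22.4% at 60 to under 80 bp, 42.3% at 80 to under 100 bp, 47.9% at 100 to under 150 bp, 32.9% at 150 to under 200 bp, 43.5% at 200 to under 500 bp and 77.1% at 500 bp or more. Peaks under 80 bp were thus retained less often than peaks of their score, and longer peaks more often. The shortest peak in the 20 M list was 50 bp. At sites with 1 peak in each list, the median length difference, 20 M minus 4 M, was -30.0 bp. What part these limits of length had in the shares of short peaks was not tested. The dip at 150 to under 200 bp came with low scores, since the median percentile of that class was 42.9, against 79.5 for the class below it.

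**Figure D1:**
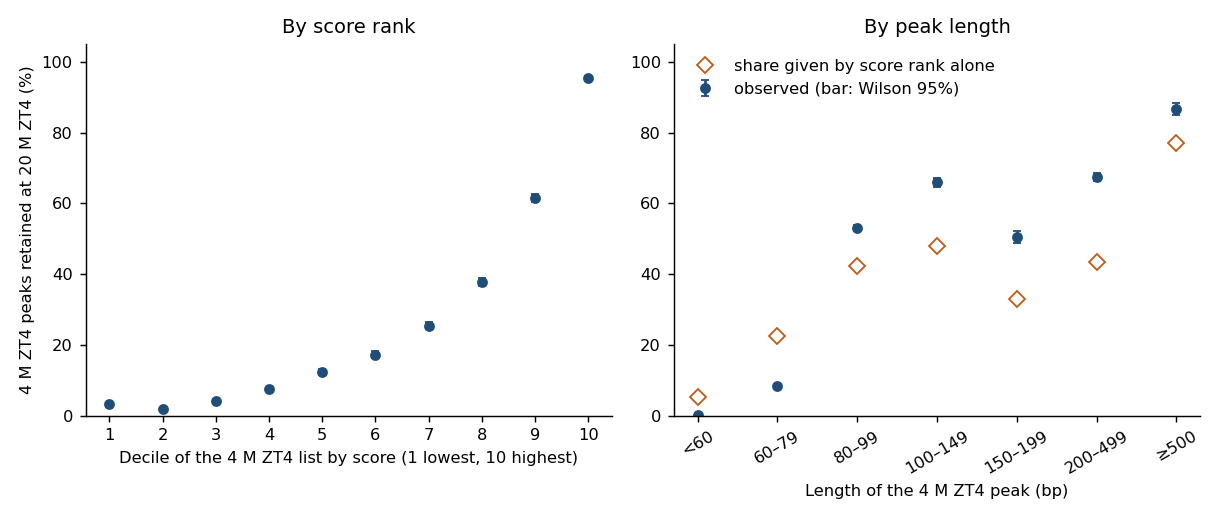
Share of 4 M ZT4 peaks retained at 20 M ZT4 (%, y axis), by decile of the 4 M list by score (left) and by length of the 4 M peak in bp (right); filled points are observed shares with Wilson 95% intervals, open diamonds the share given by score rank alone. The share climbs to 95.5% in the top decile, and the observed share is under the diamond in both classes below 80 bp and above it in the 5 longer classes.

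In the upper deciles longer peaks were also retained more often within a narrow range of scores. In the ninth decile, with scores of 155 to 181, 24.9% of the 2007 peaks of 60 to under 80 bp were retained, 65.6% of the 3601 peaks of 80 to under 100 bp, 95.4% of the 931 peaks of 100 to under 150 bp, 99.2% of the 120 peaks of 150 to under 200 bp and 99.8% of the 537 peaks of 200 to under 500 bp. In the fifth decile, with scores of 100 to 112, the same classes kept 3.44%, 36.1%, 51.5%, 50.5% and 280 of 467 peaks. In the second decile, with scores of 56 to 72, they kept 2.15%, 18.6%, 9.24%, 9.09% and 13.1%, so that length did not order the shares above 80 bp there. In the top decile all 1243 peaks of 500 bp or more and all 1943 peaks of 200 to under 500 bp were retained. The 316 peaks of the top decile that were not retained measured 50 to 174 bp, with a median of 86.0 bp, against 187 bp for the retained ones.

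At the sites shared by both ages the 20 M peak was the shorter one. Over the 18617 sites with 1 peak in each list, the median length was 75 bp at 20 M and 107 bp at 4 M, and the median difference was -30.0 bp (quartiles -40.0 and -23.0). The 20 M peak was shorter at 18550 sites (99.6%), longer at 66 and equal at 1, and it lay wholly inside the 4 M peak at 98.9% of sites. The median difference was -21.0 bp at sites with 4 M peaks of 60 to under 80 bp, -28.0 bp at 80 to under 100 bp and -40.0 bp at 500 bp or more, where the medians were 563 bp at 20 M and 630 bp at 4 M. At the 24 sites with 4 M peaks under 60 bp it was 7.50 bp, and at the 95 sites with 10 or more other peaks within 10 kb it was -230 bp. The shortest peak listed was 50 bp at 20 M and 46 bp at 4 M. Which part depth, read length or the caller's settings had in these lengths was not tested.

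The highest-scoring 4 M peaks on numbered chromosomes that were not retained were all under 100 bp. The first, at chr15:3220662-3220737 (GRCz10, as all positions here), was 76 bp long, scored 231 and stood at the 96.9 percentile. It was in none of the other lists of the series, and the nearest 20 M ZT4 peak lay 5017 bp away. The next 4 were listed at both 20 M ZT16 and 4 M ZT16, ZT16 being 16 h after lights on. They were chr21:9236081-9236179 with a score of 216, and chr3:12698255-12698340, chr6:43392057-43392154 and chr9:7284236-7284324 with a score of 213 each. Their nearest 20 M ZT4 peaks were 10370, 16838, 57779 and 62482 bp away.

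The share retained hardly varied between chromosomes, with 1 exception. Over the 24 numbered chromosomes other than chromosome 4 it lay between 24.7% (chromosome 2) and 29.5% (chromosome 18). Set against the share given by score rank and length together, these chromosomes differed by -0.957 percentage points (chromosome 6) to 1.36 points (chromosome 1). On chromosome 4, 729 of 4592 peaks were retained, 15.9% (14.8 to 17.0). The deficit lay beyond 25 Mb, on the long arm, where 13.1% of 3577 peaks were retained (12.1 to 14.3), against 25.5% of the 1015 peaks up to 25 Mb. Peaks beyond 25 Mb had low scores, with a median percentile of 7.58, and rank and length gave 13.4% for them. On unplaced scaffolds, contigs of the assembly with no place on a chromosome, 1036 of 2095 peaks (49.5%, 47.3 to 51.6) were retained, and rank and length gave 49.9%. Those shares include the peaks they are set against. Taken from the other peaks alone, rank and length gave 11.7% for the chromosome 4 arm, which is under the observed 13.1%, and for unplaced scaffolds the share moved by under 1 percentage point. With the 4 M list cut to as many peaks as the 20 M list, 64.9% of the peaks of chromosome 4 were retained, against 68.5% of all peaks. Peaks on unplaced scaffolds made up 5.51% of the 20 M list and 2.98% of the 4 M list, and peaks on chromosome 4 made up 4.13% of the 20 M list and 6.53% of the 4 M list.

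**Figure D2:**
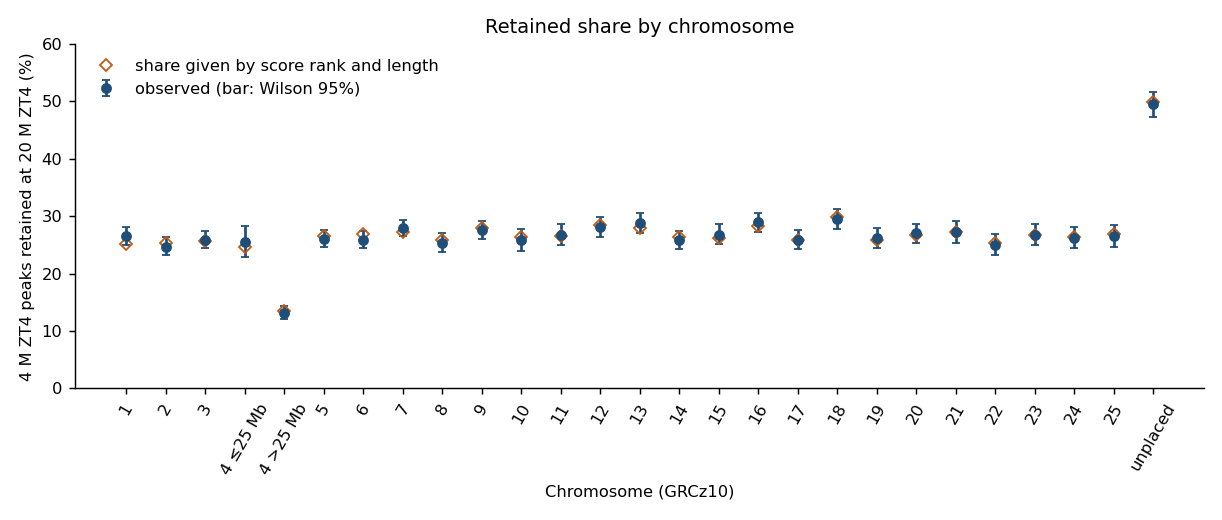
Share of 4 M ZT4 peaks retained at 20 M ZT4 (%, y axis) on each chromosome, chromosome 4 split at 25 Mb, and on unplaced scaffolds; filled points are observed shares with Wilson 95% intervals, open diamonds the share given by score rank and length. The part of chromosome 4 beyond 25 Mb stands low at 13.1% and unplaced scaffolds high at 49.5%, both close to their diamonds.

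Peaks near chromosome ends were retained more often. Without chromosome 4, 33.2% of the 13348 peaks within 5 Mb of an end were retained, the far end being the last listed peak, against 12587 of the 50282 peaks further in. Rank and length gave 32.9% near ends and 25.1% further in.

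Across 1-Mb windows the retained share spread widely. The 1339 windows with at least 20 of the 4 M peaks had a median share of 24.4%, with the middle of the distribution between 18.6% and 30.8% (quartiles) and extremes of 0% and 64.1%. The SD over windows was 9.60 percentage points, and 4.17 points after the share given by rank and length was taken off. The 5 highest windows were 5 to 6 Mb of chromosome 25 (41 of 64 peaks), 49 to 50 Mb of chromosome 18 (40 of 70), 43 to 44 Mb of chromosome 18 (33 of 58), 49 to 50 Mb of chromosome 9 (50 of 88) and 50 to 51 Mb of chromosome 16 (48 of 88). Their peaks scored high at 4 M, with median percentiles of 61.3 to 83.4. These windows kept 54.5% to 64.1%, where rank and length gave 49.1% to 61.7%. The interval of each of these highest windows held the share that rank and length gave for it. The 5 lowest were 37 to 38 Mb of chromosome 4 (0 of 73 peaks), 40 to 41 Mb (1 of 80) and 67 to 68 Mb (1 of 72) of the same chromosome, 15 to 16 Mb of chromosome 13 (1 of 37), and 55 to 56 Mb of chromosome 4 (2 of 51). The peaks of these lowest windows scored low at 4 M, with median percentiles of 4.95 to 31.5. They kept 0% to 3.92%, where rank and length gave at most 7.94%. The interval held the share given by rank and length in each of them except 37 to 38 Mb of chromosome 4. There rank and length gave 6.44%, which lay above the interval. Outside the chromosome 4 arm, the window after that of chromosome 13 was 45 to 46 Mb of chromosome 2 (2 of 46).

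**Figure D3:**
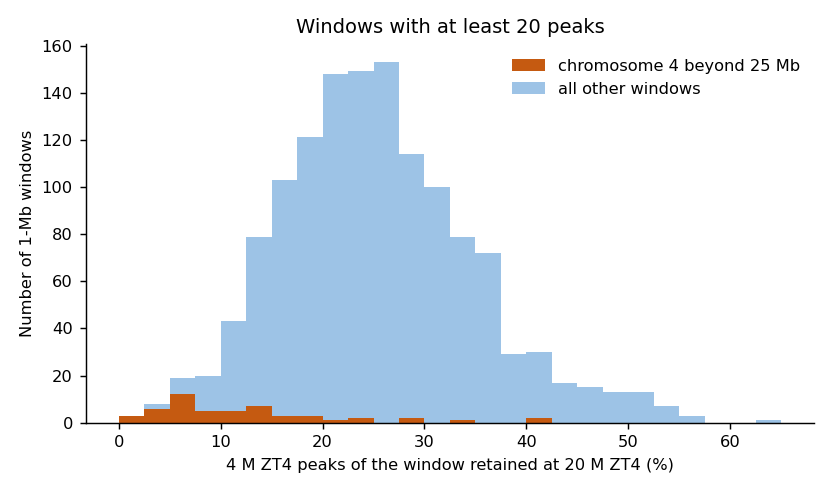
Number of 1-Mb windows (y axis) by the share of their 4 M ZT4 peaks retained at 20 M ZT4 (%, x axis), for windows with at least 20 peaks; bars are stacked, with chromosome 4 beyond 25 Mb below and all other windows above. The 52 windows of the chromosome 4 arm have a median of 9.79%, and the other 1287 a median of 24.6%.

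With 0, 1, 2, 3 to 4 and 5 to 9 other peaks within 10 kb, the retained share was 25.2%, 26.4%, 28.5%, 29.2% and 23.8%, all within 1 percentage point of the share given by rank and length. By distance to the nearest other 4 M peak, 31.6% (30.5 to 32.7) were retained within 500 bp. Beyond 20 kb, 23.4% (22.5 to 24.3) were retained. Score rank alone gave 27.8% within 500 bp and 24.9% beyond 20 kb. Rank and length gave 23.8% beyond 20 kb, inside the interval there. Within 500 bp rank and length gave a share above that of rank alone and just under the interval. The 528 peaks with 10 or more others within 10 kb differed: 115 of them (21.8%, 18.5 to 25.5) were retained, and rank and length gave 10.4%, or 5.02% from the other peaks alone. Of these dense peaks 513 lay on chromosome 4 beyond 25 Mb, with low scores (median percentile 3.36) and a median length of 294 bp. The value rests on a low-scoring and locally clustered set. It was 5.11% with a reciprocal overlap of 50%, and 13.5% of the 111 such peaks left at scores of at least 20.

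The dense peaks fell into 33 stretches. In 13 of these 115 of 293 peaks were retained, and in the other 20 stretches none of 235 were. The largest was at chr4:61731243-61784871, with 30 of 65 peaks retained at 20 M ZT4. It was followed by chr4:51539104-51599668 with 15 of 62 and chr4:61798964-61857451 with 22 of 54. The highest share among stretches of 10 or more peaks was at chr4:47558004-47575230, with 12 of 14 peaks retained and a median peak length of 848 bp. By contrast none of 26 peaks at chr4:36770444-36791886 and none of 23 at chr4:53597878-53622724 were retained. The split was also there at ZT16 in the 20 M and 4 M lists. In the 20 M ZT16 list, 79.5% of the peaks of the 13 stretches were found, and 9.79% of those of the other 20. In the 4 M ZT16 list these shares were 47.4% and 3.40%. In the 12 M ZT16 list, which held 12.1% of all 4 M ZT4 peaks, they were 0% and 0.426%. In the lowest score decile that list held 2.56% of retained and 0.233% of not retained 4 M ZT4 peaks. With so few listed at such scores, the 12 M ZT16 list could not show whether the split was there. These stretches were sorted by their 20 M ZT4 peaks, and neighbouring peaks of an arm rich in repeats can share reads, so the counts are given as a description.

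At the 18617 sites with 1 peak in each list, the score stood lower in the 20 M list than in the 4 M list. The median percentile was 49.2 at 20 M and 84.3 at 4 M, each within its own whole list, and the median difference was -27.6 points (interval -28.1 to -27.1, quartiles -45.5 and -9.29). The percentile was higher at 20 M at 2576 sites (13.8%). It was lower at 20 M by 25 points or more at 9999 sites (53.7%) and higher by as much at 270 (1.45%). The measure moves with the unequal length of the lists, because the shared sites fill most of the 20 M list and mainly the upper part of the 4 M list. Ranked among the shared sites alone, the median difference was -0.602 points. With the 4 M list cut to its 19177 highest-scoring peaks it was -2.32 points.

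The order of the sites was kept in part. Spearman's rho between the scores was 0.539 and Pearson's r 0.535 over 18617 sites, which share a caller and whose scores both move with peak length. By length of the 4 M peak rho was 0.422 at 60 to under 80 bp, 0.681 at 200 to under 500 bp and 0.348 at 500 bp or more. Quartiles and deciles of sites here are of the ranks among the shared sites alone, not of the whole lists. Of the sites in the lowest quartile at 4 M, 61.7% were also in the lowest quartile at 20 M. Of those in the highest quartile at 4 M, 45.2% were in the highest at 20 M and 5.19% in the lowest. Of all 18617 sites, 1720 were in the top decile of sites at 20 M and 1868 in that at 4 M. These deciles shared 352 sites, 20.5% of those at 20 M and 18.8% of those at 4 M. Ranked among the sites alone, the median difference was 28.1 points where the 4 M peak measured 60 to under 80 bp, 1.66 at 80 to under 100 bp, -9.12 at 100 to under 150 bp, -1.46 at 150 to under 200 bp, -2.87 at 200 to under 500 bp and -15.4 at 500 bp or more, with no steady trend in between. The sites of 60 to under 80 bp are the 8.28% of that class that were listed at 20 M at all. Sites on unplaced scaffolds, with a median 4 M length of 230 bp, differed by -9.04 points. On the numbered chromosomes these medians lay between -2.03 (chromosome 5) and 2.23 points (chromosome 25).

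**Figure D4:**
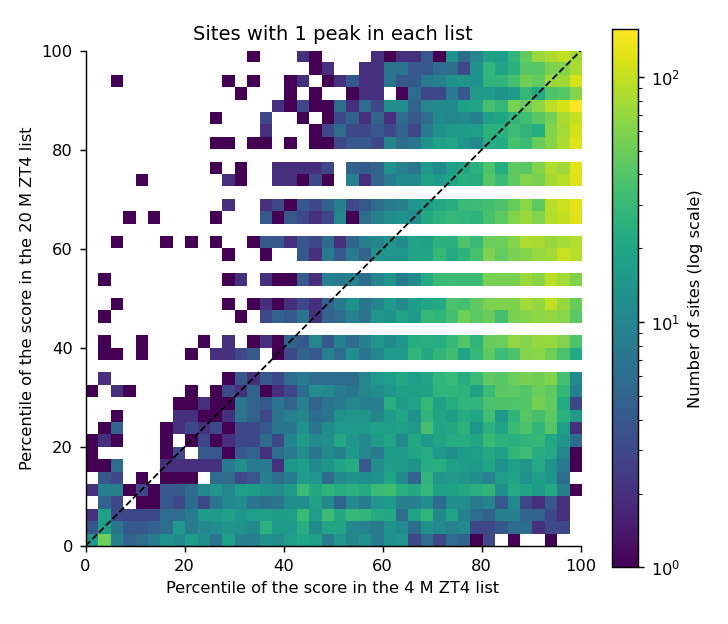
Percentile of the score in the 20 M ZT4 list (y axis) against that in the 4 M ZT4 list (x axis) at the 18617 sites with 1 peak in each list; colour gives the number of sites per bin on a log scale, the dashed line marks equal percentiles, and empty bands come from whole-number scores shared by many 20 M peaks. Most sites lie below the line, and 13.8% above it.

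The sites with the largest differences of percentile, each within its own whole list, were as follows. The 20 M percentile was higher by most at chr4:52697045-52697091 (positions of the 4 M peak), at 93.0 in the 20 M list and 6.66 in the 4 M list, where the 20 M peak of 61 bp was longer than the 4 M peak of 47 bp. Next came chr10:35848871-35849105 with 94.9 at 20 M and 27.7 at 4 M, chr4:33491163-33491239 with 98.8 at 20 M and 34.6 at 4 M, chr8:2833388-2833539 with 73.8 at 20 M and 10.8 at 4 M, and chr15:9615091-9615274 with 91.6 at 20 M and 32.3 at 4 M. A higher percentile was not a higher score at these, with 51, 61, 41 and 48 at 20 M against 84, 93, 57 and 90 at 4 M. The first site scored 49 at 20 M and 45 at 4 M. On chromosomes 10 and 15, 20 M peaks of 60 and 53 bp met 4 M peaks of 235 and 184 bp. Those pairs were lost with a reciprocal overlap of 50%. The site on chromosome 8 lay within 50 kb of crb2b, which codes for a Crumbs protein of apical cell membranes. Only loci of the study's supplementary lists were searched, so other genes may lie nearer. The 20 M percentile was lower by most at chr4:24677901-24678039, at 2.29 in the 20 M list and 94.3 in the 4 M list, where the peak measured 82 bp at 20 M and 139 bp at 4 M. The other 4 were chr11:11663770-11663879, chr19:1355617-1355738, chr19:45598661-45598777 and chr12:1177029-1177199, with 4.30 to 5.61 at 20 M and 95.1 to 96.9 at 4 M. Ranked among the shared sites alone, these 10 sites differed otherwise and in another order, with the higher ones led by the site on chromosome 4 from 33491163 (94.2 points, against 91.8 for that from 52697045) and the lower ones by chromosome 19 from 1355617 (-83.8 points). All 5 lower ones had 20 M peaks of under 100 bp inside 4 M peaks of 110 to 171 bp.

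The sites that ranked highest at both ages were near the top of both lists. They were chr11:9376932-9377197 with percentiles of 99.5 at 20 M and 99.7 at 4 M, chr25:11569190-11569356 with 99.5 at 20 M and 99.6 at 4 M, a peak of 89 bp at 4 M on the unplaced scaffold KN150190v1 with 99.9 at 20 M and 99.1 at 4 M, chr17:9443186-9443669 with 99.2 at 20 M and 99.7 at 4 M, and chr23:38912465-38912695 with 99.1 at 20 M and 99.8 at 4 M. Their 20 M peaks measured 81 to 454 bp.

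The 230 peaks listed at 20 M ZT4 and not at 4 M ZT4 were mostly weak. Their median percentile in the 20 M list was 3.19, against 49.2 for the 20 M peaks that overlapped a 4 M peak, and 158 of them scored under 20. Their median length was 134 bp, against 75 bp for the shared 20 M peaks. On chromosome 4 lay 34 of them (14.8%), against 4.13% of all 20 M ZT4 peaks. The share of chromosome 4 among 20 M peaks of like low score is not given here. In the 20 M ZT16 list 78 were found, in the 4 M ZT16 list 23, and in the 12 M ZT16 list 4. The count moved with the settings: 85 peaks of 20 M ZT4 had no partner at scores of at least 20 in both lists, 23 at scores of at least 30, 1694 with a reciprocal overlap of 50% and 5930 with lists of equal size.

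The 5 highest-scoring of these peaks included a pair at the start of chromosome 15. They lay at chr15:6892-7083 (percentile 99.5) and chr15:7373-7460 (percentile 98.3), and both were also in the 12 M ZT16 and 20 M ZT16 lists and in neither 4 M list. The nearest 4 M ZT4 peaks were 54982 and 54605 bp away. Among the loci of the study's supplementary lists, the only ones searched, the pair lay within 50 kb of apoa1b. That gene codes for an apolipoprotein of high-density lipoprotein. The others were chr1:47421168-47421220 (percentile 96.7) and chr2:46077-46133 (85.7), both listed at 20 M ZT16, and chr25:35029020-35029069 (96.1), which was in no other list.

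Retained peaks were more often found in the lists of the other times and ages than peaks not retained. In the 12 M ZT16 list, which held 12.1% of all 4 M ZT4 peaks, 43.9% of the retained peaks were listed (8255, interval 43.2 to 44.6), against 0.505% of the peaks not retained (260, 0.447 to 0.570). Score rank alone gave 34.6% for the retained and 3.90% for the not retained. Put the other way round, 96.9% of the 8515 4 M ZT4 peaks listed at 12 M ZT16 were retained at 20 M ZT4. The gap was also there within deciles of the score. In the top decile the shares were 79.5% of retained and 6.96% of not retained peaks, and in the fifth decile 20.6% and 0.355%. Scores still differed inside the top decile. There 3494 retained peaks and 9 not retained scored 212 to 304, and 3170 and 307 scored 182 to 211. Length was not matched within deciles. In the top decile the median was 187 bp for retained peaks and 86.0 bp for those not retained. What part length, or the difference in score left inside a decile, had in this gap was not tested. The 12 M ZT4 list held only 29 peaks. All 27 of the 4 M ZT4 peaks listed there were retained, which is 0.144% of the retained peaks, where score rank alone gave 0.136%.

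The other ZT16 lists held most of the 4 M ZT4 peaks, 96.1% of all at 20 M ZT16 and 78.7% of all at 4 M ZT16. In the 20 M ZT16 list, 99.8% of the retained and 94.7% of the not retained peaks were found, where score rank alone gave 99.4% and 94.9%. In the 4 M ZT16 list it was 99.5% of the retained and 71.1% of the not retained, where rank gave 96.9% and 72.1%. Of the 51528 peaks missing at 20 M ZT4, 36577 (71.0%) were in both the 20 M ZT16 and the 4 M ZT16 list. A further 2658 (5.16%) were in no other list, with a median percentile of 2.55, and 1302 of these lay on chromosome 4. That chromosome held 6.53% of all 4 M peaks, and its peaks beyond 25 Mb had a median percentile of 7.58. Its share of low-scoring peaks was larger, since 3128 of its 4592 peaks scored at least 30, against 66872 of all 70317. The lists share no library, but they share ages, times and a caller.

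**Figure D5:**
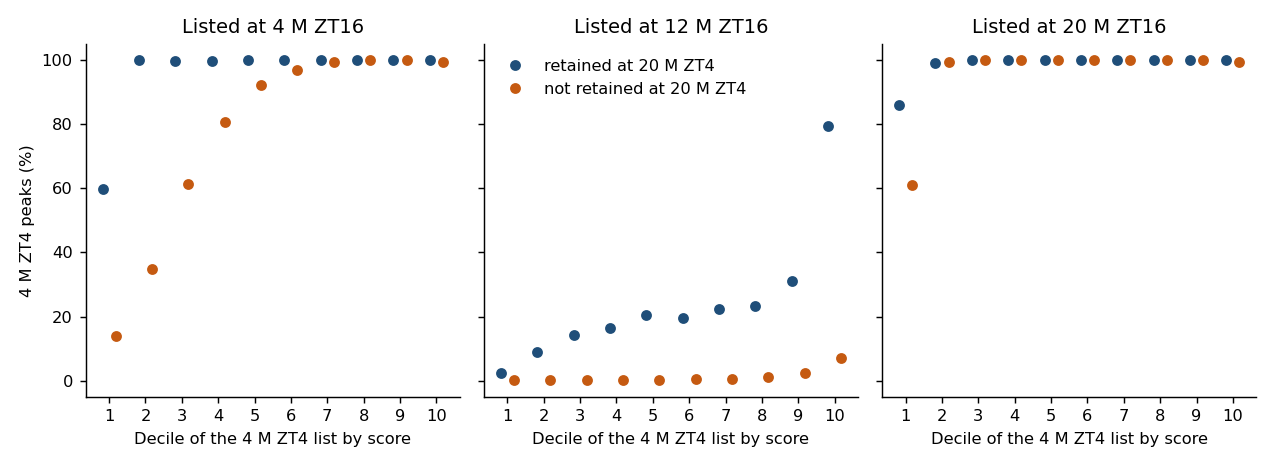
Share of 4 M ZT4 peaks (%, y axis) also listed at 4 M ZT16, 12 M ZT16 and 20 M ZT16 (panels), by decile of the 4 M ZT4 list by score (x axis, 1 lowest), for peaks retained at 20 M ZT4 (left point of each pair) and not retained (right point). The groups part in every decile at 12 M ZT16, reaching 79.5% and 6.96% in the top decile, and meet near 100% from the second decile upward at 20 M ZT16.

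Genes whose expression differs between 20 M and 4 M brains at ZT4, as listed in the study's supplementary data, were examined for peaks within 3 kb. The list is the study's own choice from fish of this series, and only its names and positions were used. Of its 76 annotated loci, 21 had a retained 4 M peak, 20 had 4 M peaks of which none was retained, and 35 had no 4 M peak. In all 28 of their 91 peaks (30.8%, 22.2 to 40.9) were retained, against 26.7% of all 4 M peaks and 26.2% given by rank and length. Of 190 loci without a gene name, 36 had a retained peak, 58 had peaks with none retained, and 96 had no peak, and 49 of their 170 peaks (28.8%, 22.5 to 36.0) were retained. Both shares have intervals that hold the share over all 4 M peaks.

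Genes of blood and iron transport kept 1 of 8 peaks (interval of the share 2.24% to 47.1%), where rank and length gave 23.1%. At slc4a1a, which codes for the anion exchanger of red cells, 3 peaks were listed at 4 M ZT4 and none at 20 M ZT4. They were chr3:19915353-19915432 (outside the gene, percentile 67.6), chr3:19921206-19921267 (inside, 53.0) and chr3:19932800-19932872 (inside, 74.3), with lengths of 62 to 80 bp. Over all 4 M peaks, 8.28% of those of 60 to under 80 bp and 53.0% of those of 80 to under 100 bp were retained. All 3 peaks of slc4a1a were listed at both 20 M ZT16 and 4 M ZT16. At tfr1b, a transferrin receptor, the peak of 192 bp was retained, with a percentile of 57.5 at 20 M and 96.8 at 4 M, and the other 2 peaks, at percentiles 10.3 and 9.01, were not. Both peaks of tfa (transferrin), of 53 and 52 bp, were not retained. The locus of hbaa1, an alpha globin, had no peak.

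Muscle genes kept 5 of 16 peaks (14.2% to 55.6%), where rank and length gave 33.9%. At myl13, a myosin light chain, 2 of 3 peaks were retained, with percentiles of 73.8 and 70.0 at 20 M and 92.9 and 93.8 at 4 M, and 20 M lengths of 92 and 80 bp. The one of 92 bp lay inside the gene and the one of 80 bp outside. The third, of 53 bp, was not retained. The single peak of mybpc2a (myosin binding protein C), of 95 bp and outside the gene, was retained. Inside mybpc1 a peak of 134 bp was retained, and its other peak of 55 bp was not. At the shared locus of atp2a2a, a calcium pump of the sarcoplasmic reticulum, and ift81, 1 of 4 peaks was retained. This peak lay outside the locus, with a percentile of 11.9 at 20 M and 61.7 at 4 M. The peak with the highest score at that locus, at percentile 91.3 and 89 bp long, was not. The 3 peaks of adssl1 (adenylosuccinate synthase) and the single peaks of the fast myosin heavy chain loci myhz1.1 and myhz2 and of tnnc1b (troponin C) were not retained. Loci without a peak were ckmt2b, desma, myl10, tcap, tnni1d and trim63a.

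Neuronal genes kept 1 of 5 peaks (3.62% to 62.4%), where rank and length gave 18.4%. At gad1b, the glutamate decarboxylase that makes GABA, 4 peaks of 68 to 86 bp were listed at 4 M, and the longest was retained, with a percentile of 53.4 at 20 M and 67.6 at 4 M. The peak of tlx3b, a homeobox factor, was not retained, and neurod1 and oxt had none. Genes of epithelia and cell junctions kept 1 of 6 peaks (3.01% to 56.4%), where rank and length gave 10.3%. The retained one, of 230 bp, lay outside the gene, within 3 kb of the locus of anxa1b (annexin). The peaks of cdh1 (E-cadherin), ppl (periplakin) and krt17 (keratin) measured 48 to 67 bp and were not retained, and evpla, krt4, krt5 and krt91 had none. Of the transport genes, slc12a10.2, an ion cotransporter, had 2 peaks of 64 and 69 bp, neither retained, and kcnj13, rhbg and slc14a2 had none. Rank and length gave 2.90% for these 2 peaks. The yolk protein genes vtg2 and vtg7 had no peak.

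The longest peak beside an annotated locus of that list was chosen for mention after its value was seen. At stc1l, a stanniocalcin, a peak of 1265 bp at 4 M was retained as one of 1239 bp at 20 M, at a percentile of 65.9 at 20 M and 99.4 at 4 M, and it was also in the 3 lists of ZT16.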

How the data were processed

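H3K9me3 ChIP-seq of zebrafish brains was used as deposited. The authors sequenced 50-bp reads, aligned them with Bowtie2 to build GRCz10, and ran the peak caller MACS2 (version 2.2.1 in the submitters' processing notes) on each triplicate, at an FDR of 0.01 by the methods. The deposited unit is a score per peak, a whole number from the authors' peak caller whose scale the lists do not name. If it is the scale MACS2 usually writes, 10 times the negative log10 of q, scores under 20 lie outside that FDR. The control of the calls is not given in the sources used here. The paper's methods state a single sequencing depth for the ChIP DNA. Read counts and mapped depth per library are unknown from the lists.

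Lists were compared by overlap of at least 1 bp, and scores by mid-rank percentile within a list. Expected shares are means over peaks of the share retained in their twentieth of the ranking, alone or crossed with length class. The scripts ran on Python 3.11.15 with scipy 1.17.1, pandas 2.3.3, numpy 2.4.6 and, for plots, matplotlib 3.10.9. Tested on simulated data, the overlap step found all 1500 overlaps planted among 5000 intervals, and its calls on the lists were checked against bedtools 2.31.1.

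Members, gene lists and the rule for naming sites were chosen with earlier results of these data known. Named are the 5 top 4 M peaks on numbered chromosomes not retained, the 5 sites with the largest percentile difference each way, the 5 with the highest mean percentile, the 5 top peaks listed at 20 M only, the 5 highest and 5 lowest windows, and every gene of 6 fixed groups with a peak within 3 kb. Windows of other chromosomes and stc1l, and expected shares taken from the other peaks alone, were added after values were seen. Loci came from the study's supplementary list, without its expression values. Base composition was not analysed here, because it needs the GRCz10 genome. The alternatives were stricter scores, another rule of overlap, subsets of chromosomes, merging, lists of equal size, other windows, distances, flanks and percentiles.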

Additional observations from a re-analysis of the deposited data

How the results depend on the processing

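No paired analysis was possible because each list pools its triplicate and holds no value per library, and for the same reason no library could be left out. Of 62 alternative values for the main results, 23 stayed within the counting interval of the value given, or within 1.5 times of a count, and 39 moved. Shares and counts cannot change sign. The median percentile difference could, and it stayed negative in every alternative. Its sign in the whole lists goes with their unequal length, and without that the difference was only -0.602 or -2.32 points. The constant sign is therefore no evidence of weaker peaks at 20 M. The share of all 4 M ZT4 peaks retained was 25.7% at scores of at least 20, 19.9% at scores of at least 30, 24.9% with a reciprocal overlap of 50%, 30.1% counting a peak within 1 kb, 26.0% on numbered chromosomes, 27.5% without chromosome 4, 28.2% after merging within 1 kb, and 68.5% with the 4 M list cut to as many peaks as the 20 M list. The share of the top decile was 87.5% at scores of at least 30, 92.7% with the reciprocal overlap, 94.0% on numbered chromosomes, 96.1% merged and 100% with equal lists. That of peaks under 60 bp was 0.0778% at scores of at least 30, 0.0814% with the reciprocal overlap, 4.87% within 1 kb and 12.5% of 8 peaks with equal lists. That of peaks with 10 or more others near was 13.5% at scores of at least 20, 5.11% with the reciprocal overlap, 38.8% within 1 kb, 0% of 15 peaks without chromosome 4, and 30.4% for others within 50 kb; scores of at least 30, merging and equal lists left no such peak. On chromosome 4 it was 13.9% at scores of at least 30, 12.7% with the reciprocal overlap, 19.9% within 1 kb, 17.1% merged and 64.9% with equal lists. The median percentile difference was -30.0 and -34.2 at scores of at least 20 and 30, -28.3 with the reciprocal overlap, -27.0 merged, -2.32 with equal lists, -0.602 among the shared sites and -29.2 with ties ranked low. Peaks listed at 20 M ZT4 only numbered 85 and 23 at scores of at least 20 and 30, 1694 with the reciprocal overlap and 5930 with equal lists, which drop partners by construction. The share of retained peaks listed at 12 M ZT16, tried after the data were seen, was 50.2% at scores of at least 30 and 44.2% with the reciprocal overlap. Other windows, and flanks of 0 and 10 kb around loci, left the median window share and the number of loci with a retained peak within these limits. What the moves not marked as construction come from was not tested. The mapped depth behind a list is unknown, which limits every comparison between the ages.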
